A study of Homo sapiens with 7 samples.

Results

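The G2/M and mitosis genes are 50 protein-coding genes whose products drive entry into mitosis, build the spindle, attach and separate the chromosomes and divide the cell. They were taken by symbol from the 58174 genes of the deposited table, which matched all 50. Their transcripts were measured by total RNA-seq in Huh-7, a cell line derived from a human hepatocellular carcinoma, harvested 72 h after transfection of siRNAs. The comparison was between 3 libraries from cells transfected with a control siRNA (siC) and 4 from cells that received a siRNA pool against IGF2BP1 (siIGF2BP1). The labels name no treatment beyond the transfection, both groups come from this 1 line, and no label says whether the libraries of a group come from separate transfections, so p-values measure the spread between these libraries, which may be technical. IGF2BP1 is an oncofetal RNA-binding protein, and the study asked which transcripts depend on it.

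A dividing cell enters mitosis when cyclin B binds CDK1 and CDC25 phosphatases remove the inhibitory phosphates from it. Genes of this phase are silent early in the cell cycle, when the DREAM complex holds their promoters, and become active late in the cycle, when the MuvB core of that complex joins B-MYB (encoded by MYBL2) and FOXM1. The element that MuvB binds is the CHR (cell cycle genes homology region), a hexamer close to the transcript start, often with a CCAAT box upstream. At the end of metaphase the spindle checkpoint releases CDC20, and the anaphase-promoting complex (APC/C) marks cyclin B and securin for degradation. In tumour tissue, including that of the liver, transcripts of these genes serve as a readout of how many cells divide. In bulk RNA, fewer dividing cells and less transcript per dividing cell cannot be told apart.

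The promoters show what the members share apart from their function. Promoter windows of 250 bases before to 50 after the transcript start were taken from RefSeq (GRCh38.p14), which held 54 windows for 42 of the 50 members. RACGAP1, UBE2C, BIRC5, TPX2, FOXM1, BUB3, AURKA and TTK had no entry. The CHR was searched as TTTGAA or TTCGAA on both strands, of which the latter reads the same on either strand. It occurred in 64.8% of the members' windows and in 16.4% of all 35116 windows of this length. Counted by gene, 32 of 42 members (76.2%) held it, against 19.5% of all genes. Within 50 bases before the start it was found in 47.6% of the members and in 3.46% of all genes. CCAAT, searched on both strands as well, occurred in 68.5% of the members' windows and in 34.6% of all windows. Windows of 11 members from different roles are shown on the gene's strand, 5′ to 3′, with the CHR hexamer in capitals, each around the hexamer nearest to the start, because they include 7 of the 12 members with the smallest p-values below.
NCAPG: tcgcgggaattaTTTGAAcgttcgagcggt
KIF4A: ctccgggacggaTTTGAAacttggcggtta
KIF11: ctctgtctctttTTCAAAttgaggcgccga
NDC80: ccggcggagaatTTCAAATTCGAAcggctt
NUF2: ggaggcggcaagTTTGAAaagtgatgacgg
CDK1: ctcgcacttggcTTCAAAgctggctcttgg
MAD2L1: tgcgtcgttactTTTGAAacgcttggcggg
CCNB2: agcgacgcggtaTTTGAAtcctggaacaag
PLK1: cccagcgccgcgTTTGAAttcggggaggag
MKI67: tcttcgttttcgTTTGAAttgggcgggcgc
INCENP: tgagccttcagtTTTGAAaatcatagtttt
In the same order, these windows lie at chr4:17810932-17810961, chrX:70290058-70290087, chr10:92593090-92593119, chr18:2571542-2571571, chr1:163321958-163321987, chr10:60778475-60778504, chr4:120066807-120066836, chr15:59105105-59105134, chr16:23678848-23678877, chr10:128126435-128126464 and chr11:62123989-62124018. With the first transcribed base counted as 0, the hexamer began at -35 in NCAPG, -34 in KIF4A, -28 in KIF11, -29 in CCNB2, PLK1 and MKI67 and -10 in INCENP. It lay at or after the start in CDK1 (9), NUF2 (16) and MAD2L1 (24), and across it in NDC80 (-3). CDK1 held another 3 hexamers further upstream, MKI67 another at -47, and NDC80 a second, at 3, which directly follows the first and is in capitals as well. A match of these letters is a description of the window and not a bound site, and the start of a RefSeq transcript need not be the start used in Huh-7. The list of 40 G1/S and DNA replication genes, which are switched on earlier in the cycle, held the CHR in 6.38% and CCAAT in 63.8% of its 47 windows. A list of 50 further G2/M and mitosis genes held the CHR in 74.4% and CCAAT in 69.8% of its 43 windows. By gene, 76.9% of that list held the CHR, so the element was not particular to the members.

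**Figure D1:**
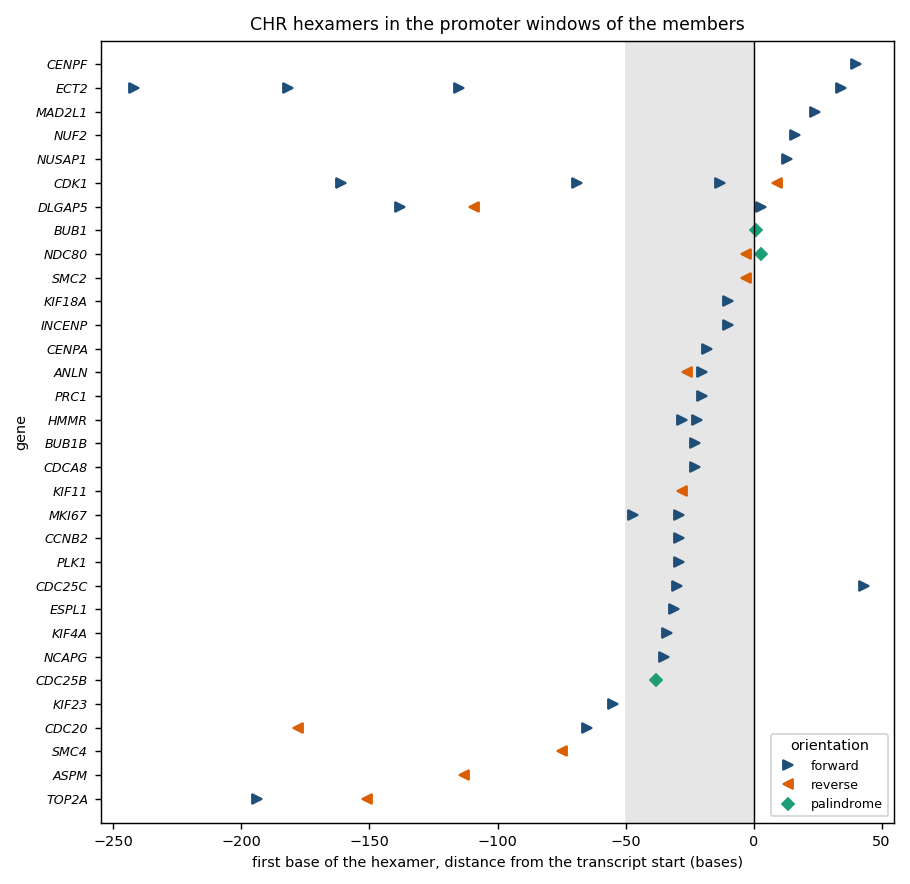
Position of each CHR hexamer (TTTGAA or TTCGAA, both strands) in the promoter windows of the 32 members that held one, in bases from the transcript start, with markers for orientation and the stretch of 50 bases before the start in grey. In 20 members a hexamer lies in the grey stretch, and the other 12 members hold it after the start or further upstream.

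Sequencing depth ran from 12826550 to 33212205 gene-mapped reads per library, and each member was covered by 311 to 27541 reads, which is a counting error of 5.67% to 0.603% of a value. Averaged over the libraries, counting error was over 0.5 times the replicate SD for 11 members, and for TTK it was above that SD (2.55% against 2.08%). IGF2BP1 itself reached 82.2 ± 2.03 FPKM (SD, n = 3) in siC, against 15.8 ± 0.583 FPKM (n = 4) in siIGF2BP1, which is 19.2% of siC (log2 change -2.37, limma adjusted p = 1.165e-05). FPKM are fragments scaled to gene length and library size, so levels of different genes can be compared. The hepatoma markers AFP, ALB and 8 others were expressed in all libraries, with a summed level of 6449 to 8187 FPKM in siC and 7457 to 7695 FPKM in siIGF2BP1. Of 5 blood cell, 4 endothelial and 5 fibroblast markers, 11 were below 1 FPKM in every library, among them PTPRC, VWF and DCN, and HBB and KDR were listed at 0. The 3 above it, named after their values were seen, were LYZ (157 and 122 FPKM in siC and siIGF2BP1), PECAM1 (2.81 and 3.01) and COL1A2 (1.03 and 1.29). Library siC replicate 3 stood apart from the other 6 on the leading principal component (34.5% of the variance), and results that rest on it are given with and without it.

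The members were well expressed in Huh-7, with mean levels from 10.2 to 130 FPKM in siC, and all 50 passed the minimum of a mean of 1 FPKM over the 7 libraries. In siIGF2BP1, 31 had a lower and 19 a higher mean than in siC. The log2 changes (siIGF2BP1 minus siC) ran from -0.42 for KIF4A to 0.33 for NUF2, with a median of -0.056, beside -0.017 over all 14839 genes tested. At a limma adjusted p of at most 0.01, 0 members were lower and 0 were higher, where 2.28% of all genes tested were lower and 1.65% higher. With voom on the recovered reads 0 and 0 passed as well (background 3.30% and 2.38%). At an unadjusted p under 0.05, 7 members (14.0%) were lower and 3 (6.0%) higher, beside a background of 14.8% and 11% of all genes. The groups stood apart, with no overlap of values, for 8 lower members (16.0%, background 15.1%) and 3 higher members (6.0%, background 11.9%). The shares of lower members were thus near those of all genes, and the shares of higher members below them, but this order depended on the scaling. With quantile normalization 3 members (6.0%) had a lower and 7 (14.0%) a higher mean at an unadjusted p under 0.05, beside 12.9% and 12.7% of all genes, and groups did not overlap for 4 lower (8.0%) and 10 higher members (20%), beside 13.7% and 13.4%. The 95% confidence interval of the log2 change lay within a 1.5-fold change in either direction for 47 members, the exceptions being KIF4A, FOXM1 and BUB3. The SE of these log2 changes ran from 0.051 to 0.23.

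**Figure D2:**
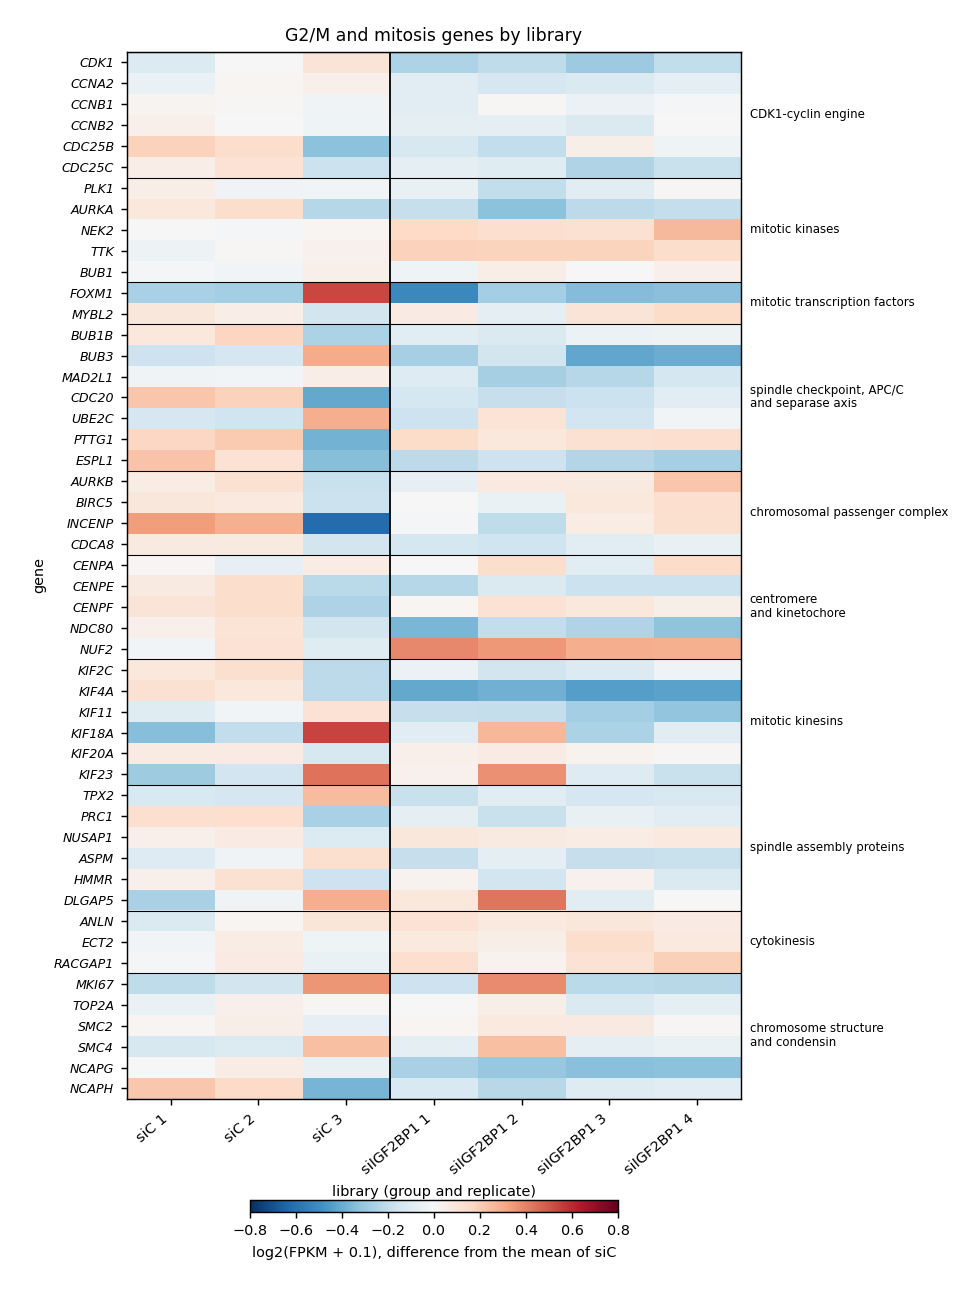
Heat map of the 50 members by role, as the difference of log2(FPKM + 0.1) from the mean of the 3 siC libraries, with a column per library. Rows such as NCAPG and KIF4A are blue and NUF2 and TTK red over all 4 siIGF2BP1 libraries, while siC replicate 3 is red for FOXM1, KIF18A and KIF23 and blue for INCENP and CDC20, unlike siC replicates 1 and 2.

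Among the genes of the CDK1-cyclin engine, all 6 had a lower mean in siIGF2BP1 with log2 changes from -0.24 to -0.033, and 1 had an unadjusted p under 0.05, where 14.8% of all genes were lower (3 without siC replicate 3, where 23.1% were). With quantile normalization CCNB1 had a log2 change of 0.039. CDK1, the kinase that starts mitosis (ENSG00000170312, chr10:60778331-60794852, plus strand), was at 47.1, 50.9 and 54.6 FPKM in siC replicates 1 to 3 and at 42.8, 44.1, 41.5 and 44.3 FPKM in siIGF2BP1 replicates 1 to 4. All 4 values lay below all 3 (log2 change -0.24 ± 0.068 SE, limma adjusted p = 0.0713). CCNB1, the cyclin that activates it, was at 76.3, 75.6 and 73.6 FPKM in siC and at 70.8, 75.5, 72.9 and 74.6 FPKM in siIGF2BP1. These groups overlapped, and the interval of the log2 change ran from -0.16 to 0.095. CCNA2, cyclin A, which acts with CDK2 in S phase and with CDK1 in G2, was among the members with the highest levels, at 88.7, 93.01 and 94.7 and 86.5, 83.8, 84.8 and 87.2 FPKM. Its groups did not overlap, though the difference was small (log2 change -0.11, limma adjusted p = 0.287). CDC25C, a phosphatase that activates CDK1, had the lowest mean of the members, with 10.5, 10.98 and 8.99 FPKM in siC and 9.60, 9.47, 8.54 and 8.93 FPKM in siIGF2BP1. The groups overlapped through siC replicate 3, and the log2 change was -0.15 (limma adjusted p = 0.348). Without that library it was -0.23 (limma adjusted p = 0.0417). CCNB2 and CDC25B, a further cyclin and phosphatase of this step, had log2 changes of -0.065 and -0.079, and of -0.081 and -0.24 without siC replicate 3.

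The mitotic kinases did not share a direction, with 2 lower and 3 higher means. AURKA, the kinase of centrosome maturation and spindle assembly (ENSG00000087586, chr20:56369389-56392337, minus strand), was at 88.7, 92.1 and 71.2 FPKM in siC and at 73.3, 66.4, 72.3 and 73.04 FPKM in siIGF2BP1. Replicate 3 of siC lay among the siIGF2BP1 values, and replicates 1 and 2 above them (log2 change -0.23 ± 0.10 SE, limma adjusted p = 0.207). TTK, the spindle checkpoint kinase MPS1 (ENSG00000112742, chr6:80003887-80042527, plus strand), was at 17.8, 18.4 and 18.7 FPKM in siC and 20.8, 20.7, 20.7 and 20.1 FPKM in siIGF2BP1. NEK2, a kinase of centrosome separation (ENSG00000117650, chr1:211658657-211675630, minus strand), was at 16.8, 16.7 and 17.02 and 18.8, 18.5, 18.3 and 20.2 FPKM. For both kinases every siIGF2BP1 library lay above every siC library, with log2 changes of 0.17 ± 0.051 and 0.17 ± 0.058 SE, and neither passed the threshold (limma adjusted p = 0.0820 and 0.116). PLK1, which acts from mitotic entry to cytokinesis, was at 20.6, 19.4 and 19.5 FPKM in siC and 19.1, 17.3, 18.6 and 20 FPKM in siIGF2BP1, which overlapped (log2 change -0.083). BUB1, a kinase of the checkpoint, had a log2 change of 0.013.

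**Figure D3:**
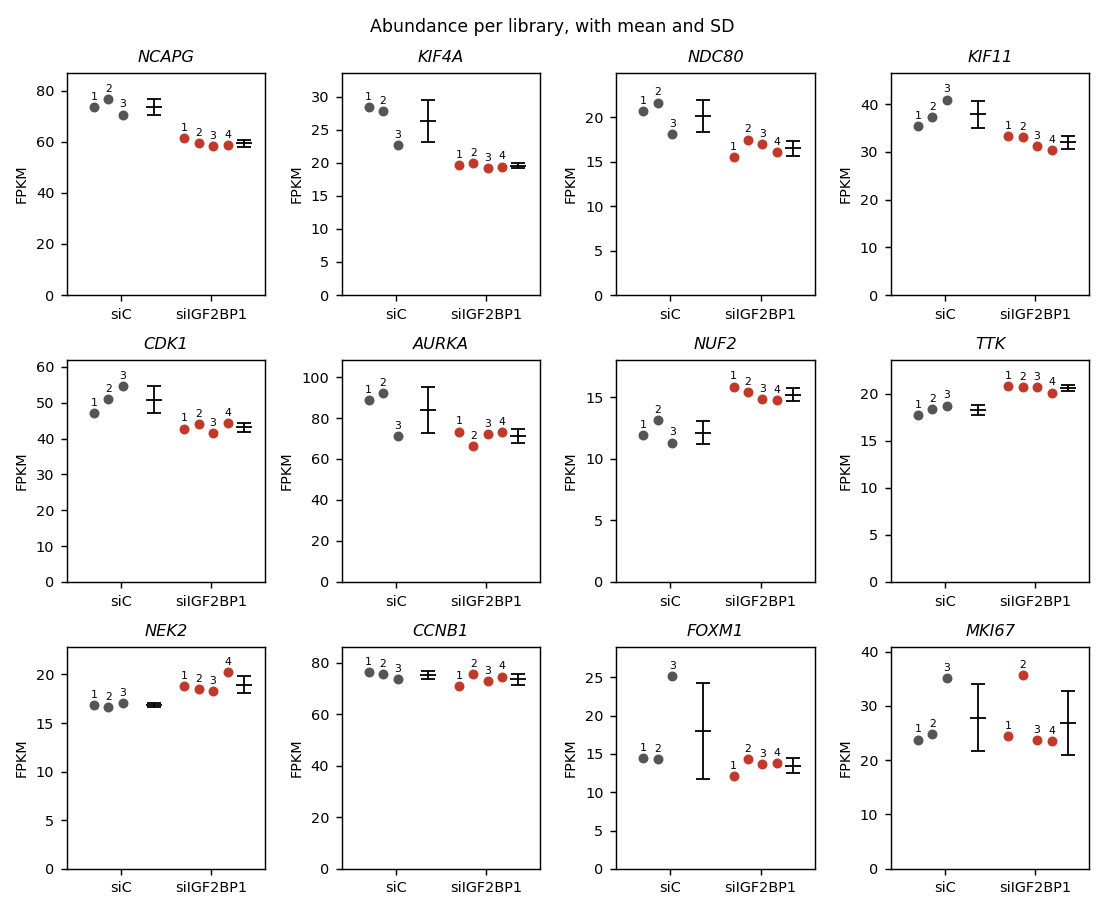
FPKM of 12 members in each library (points numbered by replicate, siC grey and siIGF2BP1 red), with bars for the group mean and SD beside the points. NCAPG, KIF4A, NDC80, KIF11 and CDK1 are lower and NUF2, TTK and NEK2 higher in all 4 siIGF2BP1 libraries, AURKA and CCNB1 overlap, and siC replicate 3 alone is high for FOXM1 and with siIGF2BP1 replicate 2 for MKI67.

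The transcription factors were FOXM1 and MYBL2. FOXM1, which switches on genes of G2, was at 14.5, 14.3 and 25.2 FPKM in siC and at 12.1, 14.3, 13.7 and 13.8 FPKM in siIGF2BP1. Replicate 3 of siC was the highest of the 7 libraries, and replicates 1 and 2 lay at or just above the highest siIGF2BP1 value. The log2 change of FOXM1 was -0.37 ± 0.20 SE with all libraries and -0.10 without siC replicate 3 (limma adjusted p = 0.306 and 0.369). MYBL2, whose product B-MYB is joined by MuvB late in the cycle, was at 95.8, 93.5 and 81.3 FPKM in siC and 94.1, 85.01, 96.6 and 99.8 FPKM in siIGF2BP1. Its groups overlapped, with an interval of the log2 change from -0.15 to 0.27.

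Within the spindle checkpoint, APC/C and separase axis, 6 of 7 members had a lower mean, and 2 of these an unadjusted p under 0.05, where 14.8% of all genes were lower (4 without siC replicate 3, where 23.1% were). MAD2L1, the checkpoint protein MAD2 that holds CDC20 (ENSG00000164109, chr4:120055623-120066858, minus strand), was at 22.9, 23.1 and 24.3 FPKM in siC and 21.8, 19.4, 19.96 and 21.3 FPKM in siIGF2BP1. No value overlapped (log2 change -0.18 ± 0.063 SE, limma adjusted p = 0.116). BUB3, which brings BUB1 to the kinetochore, was at 18.1, 18.5 and 24.9 FPKM in siC and 16.9, 18.4, 15.2 and 15.4 FPKM in siIGF2BP1. Replicate 3 of siC was the highest of the 7 libraries, and the log2 change was -0.31 with it and -0.16 without it (limma adjusted p = 0.193 and 0.221). CDC20, the activator of the APC/C and among the 5 most abundant members, was at 102, 99.2 and 65.7 FPKM in siC and 79.2, 76.8, 77.5 and 81.7 FPKM in siIGF2BP1. ESPL1, separase, which cuts cohesin, was at 12.5, 11.5 and 8.40 and 9.21, 9.51, 9.05 and 8.86 FPKM. In both, siC replicates 1 and 2 lay above all siIGF2BP1 libraries and siC replicate 3 lay below all of them. Their log2 changes went from -0.15 and -0.22 with all libraries to -0.35 and -0.39 without siC replicate 3 (limma adjusted p = 0.00251 and 0.00511, against 0.619 and 0.366). The others were BUB1B, a further checkpoint kinase-like protein, UBE2C, an E2 enzyme of the APC/C, and PTTG1, securin, with log2 changes of -0.073, -0.058 and 0.12. Without siC replicate 3 these were -0.20, 0.087 and -0.068.

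The chromosomal passenger complex, which corrects wrong attachments and later guides cytokinesis, showed 2 lower and 2 higher means. AURKB, its kinase, was at 23.9, 24.9 and 20.2 FPKM in siC and at 21.9, 24.1, 24.1 and 26.7 FPKM in siIGF2BP1. BIRC5, survivin, which tethers the complex to the centromere, was at 49.6, 49.2 and 41.2 and 46.7, 44.9, 49.4 and 50.99 FPKM. Both groups overlapped for both genes, and the log2 changes of 0.077 and 0.043 turned to -0.013 and -0.043 without siC replicate 3. INCENP, the scaffold, had the widest interval of all members, from -0.55 to 0.54, with siC replicate 3 at 14.7 FPKM and the other 2 siC libraries at 28.4 and 27.4 FPKM. Without that library the log2 change of INCENP was -0.31 (limma adjusted p = 0.0525). CDCA8, borealin, had a log2 change of -0.11, and of -0.18 without siC replicate 3.

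The kinetochore genes held both a higher and a lower member with groups apart. NUF2 and NDC80 encode the partners of the coiled-coil pair that grips spindle microtubules. NUF2 (ENSG00000143228, chr1:163266576-163355764, plus strand) was at 11.9, 13.1 and 11.3 FPKM in siC and at 15.9, 15.4, 14.8 and 14.8 FPKM in siIGF2BP1, the largest positive log2 change of the members (0.33 ± 0.069 SE, limma adjusted p = 0.0268). NDC80 (ENSG00000080986, chr18:2571557-2616635, plus strand) was at 20.7, 21.6 and 18.1 and 15.5, 17.5, 16.96 and 16.1 FPKM (log2 change -0.28 ± 0.081 SE, limma adjusted p = 0.0714). All 4 siIGF2BP1 libraries were thus above siC for NUF2 and below siC for NDC80, and neither passed the threshold. The other 2 subunits of that complex, looked up after these values were seen, were SPC24 (9.83 ± 1.35 FPKM in siC and 6.87 ± 0.462 FPKM in siIGF2BP1, log2 change -0.50, limma adjusted p = 0.0276) and SPC25 (5.23 ± 0.691 and 4.55 ± 0.233 FPKM, log2 change -0.19, limma adjusted p = 0.301). CENPA, the histone variant that marks the centromere, was at 12.6, 11.98 and 13.1 FPKM in siC and 12.6, 13.8, 11.8 and 13.9 FPKM in siIGF2BP1, which overlapped (log2 change 0.051). CENPE, a kinetochore motor, and CENPF, a kinetochore protein, had log2 changes of -0.17 and 0.065, and of -0.28 and -0.057 without siC replicate 3.

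Among the 6 mitotic kinesins, 4 means were lower and 2 higher. KIF4A, the chromokinesin that limits the growth of the central spindle (ENSG00000090889, chrX:70290104-70420886, plus strand), had the largest log2 change of the members. It was at 28.4, 27.8 and 22.7 FPKM in siC and at 19.7, 20, 19.2 and 19.4 FPKM in siIGF2BP1, which is 74.5% of the siC mean. The siIGF2BP1 values lay within 1 FPKM of each other and below all siC values (log2 change -0.42 ± 0.088 SE, limma adjusted p = 0.0262, and -0.52 with adjusted p = 0.000628 without siC replicate 3). KIF11, the motor Eg5 that pushes the spindle poles apart (ENSG00000138160, chr10:92574105-92655395, plus strand), was at 35.4, 37.3 and 40.96 FPKM in siC and 33.3, 33.1, 31.3 and 30.4 FPKM in siIGF2BP1. Its groups did not overlap either (log2 change -0.24 ± 0.072 SE, limma adjusted p = 0.0790). KIF18A, which dampens chromosome movements, was at 9.82, 10.9 and 18.2 FPKM in siC and 11.8, 15.02, 10.5 and 11.7 FPKM in siIGF2BP1. Replicate 3 of siC and replicate 2 of siIGF2BP1 were each the highest of their group for KIF18A, and its log2 change of -0.041 turned to 0.23 without siC replicate 3. KIF2C, KIF20A and KIF23, motors of chromosome attachment and of the midzone, had log2 changes of -0.083, 0.037 and 0.031. Without siC replicate 3 these were -0.19, -0.027 and 0.25.

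The spindle assembly proteins showed 4 lower and 2 higher means, none with groups apart. TPX2, the activator of AURKA on the spindle, was at 77.03, 76.3 and 99.6 FPKM in siC and at 73.9, 78.7, 76.2 and 76.8 FPKM in siIGF2BP1. ASPM, a protein of the spindle poles, was at 53.4, 56.3 and 62.7 and 50.5, 54.6, 50.4 and 50.6 FPKM. For both, siC replicate 3 was the highest library, and leaving it out took the log2 changes from -0.13 and -0.16 to -0.0055 and -0.091. PRC1, NUSAP1, HMMR and DLGAP5, which bundle or bind spindle microtubules, had log2 changes of -0.098, 0.075, -0.051 and 0.11, and of -0.23, 0.020, -0.13 and 0.25 without siC replicate 3 (limma adjusted p = 0.0146 for PRC1). The 3 cytokinesis genes were all higher in mean. These were ANLN, an anillin of the contractile ring, ECT2, the exchange factor that activates RhoA, and RACGAP1, its partner at the midzone, with log2 changes of 0.087, 0.085 and 0.12. Their limma adjusted p were 0.471, 0.401 and 0.306.

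Among the genes of chromosome structure, NCAPG had the smallest p-value of the 50 members. NCAPG encodes a subunit of condensin I, which compacts mitotic chromosomes (ENSG00000109805, chr4:17810979-17844865, plus strand). It was at 73.5, 76.6 and 70.6 FPKM in siC and at 61.3, 59.6, 58.3 and 58.6 FPKM in siIGF2BP1, which is 80.8% of the siC mean. All 4 values lay below all 3 (log2 change -0.31 ± 0.057 SE, limma adjusted p = 0.0167). The other condensin genes among the members were NCAPH, SMC2 and SMC4, with log2 changes of -0.14, 0.043 and 0.011. Without siC replicate 3 these were -0.32, 0.011 and 0.13. TOP2A, topoisomerase II alpha, was the most abundant member, at 125, 134 and 131 FPKM in siC and 129.6, 134, 119.9 and 124 FPKM in siIGF2BP1. It overlapped fully, with an interval of the log2 change from -0.19 to 0.12. MKI67, the Ki-67 protein used to stain dividing cells, was at 23.8, 24.8 and 35.1 FPKM in siC and 24.5, 35.8, 23.6 and 23.6 FPKM in siIGF2BP1. A single library of each group was high and the other 5 lay between 23.6 and 24.8 FPKM.

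Of the members with values per library, NCAPG overlaps LCORL, KIF4A overlaps PDZD11, NUF2 overlaps RGS5, CCNA2 overlaps EXOSC9, FOXM1 overlaps ITFG2 and RHNO1, CDC25C overlaps FAM53C and PLK1 overlaps ERN2 on the opposite strand, and CENPA overlaps SLC35F6 on its own strand. In all, 12 members overlap protein-coding genes of the opposite strand and 4 of the same strand, the others being RACGAP1, ANLN, NUSAP1, KIF20A and SMC4 on the opposite strand and BUB1B, NUSAP1 and PRC1 on their own. The libraries were strand-aware, but the strand setting of the counting is not given in the sources used here, so values of these genes may hold reads of their neighbours.

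Leaving out siC replicate 3 changed the count of members past the threshold. Without it, 8 members (16.0%) were lower at a limma adjusted p of at most 0.01, where 6.67% of all genes were lower, and 0 members were higher, where 3.59% of all genes were. In the order of their log2 changes these were KIF4A (-0.52), ESPL1 (-0.39), NDC80 (-0.36), CDC20 (-0.35), AURKA (-0.34), NCAPG (-0.34), NCAPH (-0.32) and CENPE (-0.28), of which NCAPH and CENPE were named after their values were seen. Their adjusted p ran from 0.000628 for KIF4A to 0.00885 for NDC80. At an unadjusted p under 0.05, 18 members were lower (36.0%, background 23.1%) and 4 higher (8.0%, background 15.2%). Groups did not overlap for 23 lower members (46.0%, background 29.3%) and 5 higher ones (10.0%, background 20.5%). The median log2 change of the members was -0.075 without this library, beside -0.031 over all genes. Of the 50 log2 changes, 34 moved by over 1.5 times without this library, and 9 of these changed sign (PTTG1, AURKB, MYBL2, CENPF, KIF20A, BIRC5, UBE2C, MKI67 and KIF18A). NUF2 had a log2 change of 0.28 (limma adjusted p = 0.0169) and TTK of 0.19 (limma adjusted p = 0.0174). When siIGF2BP1 replicate 2 was left out as well, a choice made after seeing the data, 9 members (18%) were lower and 0 higher by limma, beside 7.03% and 3.79% of all genes, and 20 and 5 at an unadjusted p under 0.05, beside 24.2% and 16.1%. Groups then did not overlap for 27 lower and 7 higher members, beside 33.1% and 23.5% of all genes, and the member added to the 8 above was PRC1. With array weights, which weigh each library by its scatter, 11 members (22.0%) were lower and 2 (4.0%) higher at the threshold, beside 11.6% and 6.89% of all genes, and 21 and 4 at an unadjusted p under 0.05, beside 26.1% and 18.4%. Those lower were the same 8 with PRC1, CDCA8 and CDK1, and those higher were NUF2 and TTK. Without siC replicate 1 or without siC replicate 2, 0 members passed in either direction by limma, beside 0.546% lower and 0.559% higher, and 0.357% and 0.512%, of all genes. At an unadjusted p under 0.05, 8 members had a lower and 2 a higher mean without replicate 1 (background 13.0% and 10.4%), and 7 and 2 without replicate 2 (11.8% and 10.3%).

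**Figure D4:**
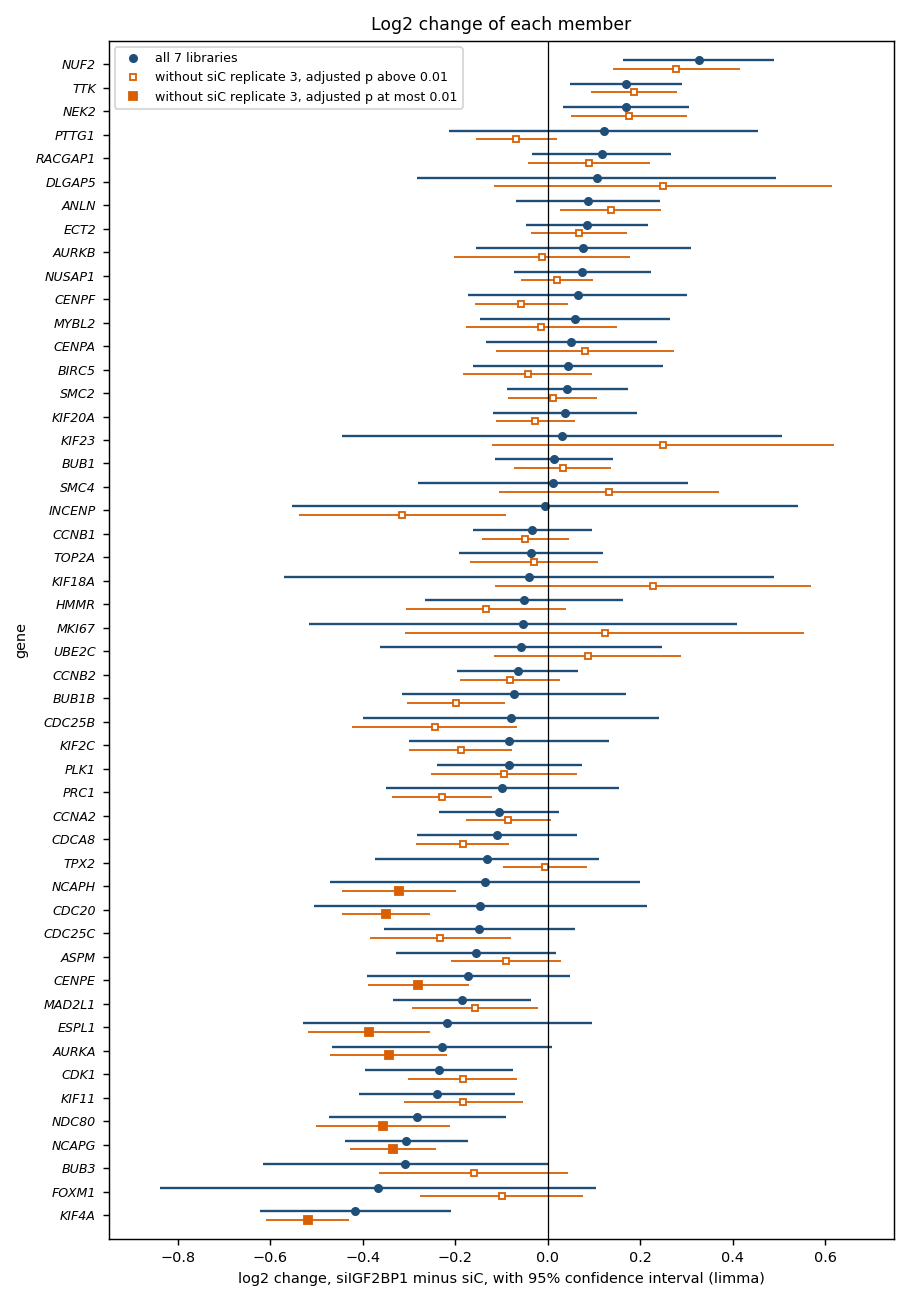
Log2 change of each member (siIGF2BP1 minus siC) with its 95% confidence interval, with all 7 libraries (blue) and without siC replicate 3 (orange, filled where the limma adjusted p is at most 0.01). The 8 filled squares lie between -0.52 and -0.28, and intervals such as those of INCENP, CDC20 and NCAPH narrow and move to the left without that library.

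The place of siC replicate 3 differed from member to member. It was the lowest siC library for 29 members and the highest for 19, and differed from the mean of the other 2 siC libraries by over 0.25 on the log2 scale in 9 members upward and in 16 downward. Upward were FOXM1 (0.80), KIF18A (0.81), KIF23 (0.66), MKI67 (0.53) and BUB3 (0.44), and downward INCENP (-0.92), CDC20 (-0.61), PTTG1 (-0.57), NCAPH (-0.56) and ESPL1 (-0.51), which were picked for the size of this difference. Library siIGF2BP1 replicate 2 was the highest of its group for 20 members and the lowest for 18, and for 11 members both were the highest of their groups. Across the 50 members, the differences of these 2 libraries from the rest of their groups had a Pearson r of 0.741, against 0.201 across 14711 genes tested. The 2 sets were not matched for level, since the 14711 genes include those with means down to 1 FPKM. The difference of siC replicate 3 had an SD of 0.699 over them and of 0.366 over the members. Whether the higher r is particular to the members was not tested. The difference of siC replicate 3 had a Spearman rho of -0.396 with the GC content of the transcript over the members and of -0.426 over the 14711 genes, and that of siIGF2BP1 replicate 2 of -0.361 and -0.386, so this relation was not particular to the members. These are descriptions across genes of the same libraries, and genes are not independent replicates. With each library's GC trend removed 0 members were lower and 0 higher past the limma threshold (background 4.23% and 2.75%), with 9 and 2 at an unadjusted p under 0.05 (17.5% and 13.2%). The limma adjusted p of KIF11 went from 0.0790 to 0.0141 in this way, that of NCAPG from 0.0167 to 0.0670 and that of NUF2 from 0.0268 to 0.0857. The smallest of the 50 was that of KIF11.

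**Figure D5:**
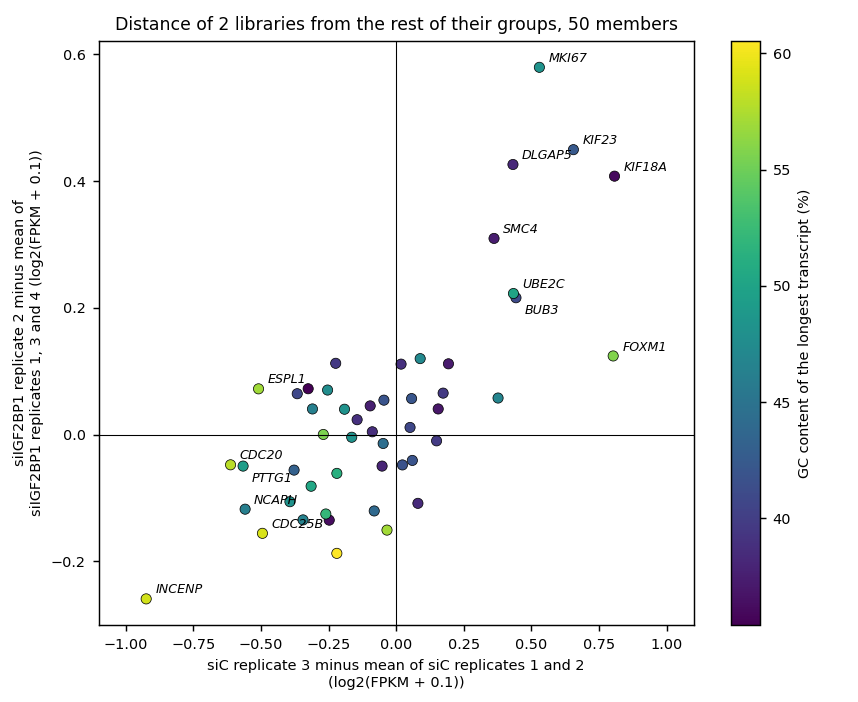
Difference of siC replicate 3 from the mean of the other siC libraries (x axis) and of siIGF2BP1 replicate 2 from the mean of the other siIGF2BP1 libraries (y axis), in log2(FPKM + 0.1), for the 50 members, coloured by transcript GC content. MKI67, KIF23, KIF18A, DLGAP5 and SMC4 are high in both libraries and INCENP is low in both.

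Taken library by library, the median difference of the 50 members from the siC mean was 0.019, 0.057 and -0.056 in siC replicates 1 to 3 and -0.073, -0.078, -0.089 and -0.046 in siIGF2BP1 replicates 1 to 4 on the log2 scale. Over all genes tested the same medians lay between -0.024 and 0.021. With the mean of siC replicates 1 and 2 as the reference, the members' median was -0.085 in siC replicate 3 and -0.080 to -0.052 in the siIGF2BP1 libraries, and with the GC trend removed it was -0.10 and -0.085 to -0.045. Replicate 3 of siC thus lay within the range of the siIGF2BP1 libraries or below it, depending on the reference. The other 2 siC libraries lay above that range in each case. Each reference holds their own values, which places them near 0 in part by construction, so these are not separate lines of support.

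Other genes of the cell cycle were set beside the members. Of 50 further G2/M and mitosis genes, 31 had a lower mean, with a median log2 change of -0.051. The threshold was passed by 1 of them, downward, and by 0 upward (limma), and an unadjusted p under 0.05 was found for 6 lower (12%) and 2 higher genes (4.0%), beside 2.28%, 1.65%, 14.8% and 11% of all genes. Without siC replicate 3 these counts were 4, 0, 18 and 4, beside 6.67%, 3.59%, 23.1% and 15.2% of all genes. The gene past the threshold was ZWINT, a kinetochore protein that helps recruit the checkpoint, at 48.1, 46.2 and 45.2 FPKM in siC and 25.1, 27.4, 28.7 and 28.99 FPKM in siIGF2BP1 (log2 change -0.76 ± 0.069 SE, limma adjusted p = 0.0013). Of 17 APC/C subunits and regulators, 1 was lower and 0 higher by limma, at the threshold and at an unadjusted p under 0.05 alike, with a median of -0.11. At an unadjusted p under 0.05 this is 5.88%, beside 14.8% of all genes, and the count went to 4 lower (23.5%) and 1 higher without siC replicate 3 (background 23.1% and 15.2%) and to 6 lower and 1 higher with array weights (background 26.1% and 18.4%). ANAPC16, a small subunit, was at 17.3, 17.7 and 15.2 FPKM in siC and 10.3, 10.3, 9.55 and 9.16 FPKM in siIGF2BP1 (log2 change -0.76 ± 0.080 SE, limma adjusted p = 0.0022). The groups did not overlap for either gene, and both also passed without siC replicate 3 (limma adjusted p = 0.00111 and 0.000717).

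The genes that act on the members' promoters and the brakes of the cycle held 0 genes past the limma threshold in either direction with all libraries. Without siC replicate 3, 1 brake was lower, SFN (14-3-3 sigma), named after its values were seen (log2 change from -0.25 to -0.42, limma adjusted p from 0.280 to 0.00236). With the GC trend removed 1 brake was higher, and with array weights 2 brakes and 2 DREAM and MuvB genes were lower and 1 brake higher, beside 11.6% lower and 6.89% higher of all genes. Of the DREAM and MuvB genes, 10 of 11 were tested, with a median log2 change of -0.066. An unadjusted p under 0.05 was found for 3 lower (30%) and 0 higher genes, beside 14.8% and 11% of all genes. Without siC replicate 3 it was 3 (30%) and 2 (20%), beside 23.1% and 15.2%. The smallest p-values were those of E2F4 (-0.29), LIN52 (-0.40) and RBBP4 (-0.49), with limma adjusted p of 0.0619, 0.0704 and 0.124. The log2 change of RBBP4 was -0.28 without siC replicate 3. Of the brakes, 16 of 18 were tested, with a median of -0.013 and an unadjusted p under 0.05 for 1 lower and 1 higher gene (6.25% each, beside 14.8% and 11% of all genes), and 3 and 3 without siC replicate 3. The others, CDKN1C and GADD45G, named after their values were seen, averaged below 1 FPKM and were not tested. CDKN1C was at 1.753, 1.34 and 1.152 FPKM in siC and 0.4268, 0.4743, 0.2626 and 0.566 FPKM in siIGF2BP1, with no overlap. GADD45G had a higher mean in siIGF2BP1, and its groups overlapped. CDKN1A, the CDK inhibitor p21, was at 1.997, 1.82 and 1.45 FPKM in siC and 2.53, 2.71, 2.90 and 2.60 FPKM in siIGF2BP1 (log2 change 0.59 ± 0.13 SE, limma adjusted p = 0.0295). All siIGF2BP1 values lay above all siC values for CDKN1A. CDKN2B, the inhibitor p15, and GADD45B, a stress-induced protein that can inhibit CDK1, differed by -0.28 and 0.32 on the log2 scale, with limma adjusted p of 0.139 and 0.276. Without siC replicate 3 the difference of GADD45B was 0.12.

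The G1/S and DNA replication genes had a lower median than the members, -0.17 over the 39 of 40 tested, and 30 of them had a lower mean. With limma 0 of the 39 passed the threshold, while an unadjusted p under 0.05 was found for 14 lower (35.9%) and 0 higher genes, beside 14.8% and 11% of all genes. With quantile normalization it was 6 lower (15.4%) and 2 higher, beside 12.9% and 12.7%. The smallest p-values were those of E2F1 (log2 change -0.44), E2F2 (-0.46) and GINS1 (-0.31), 2 transcription factors of S phase entry and a subunit of the replicative helicase, with limma adjusted p of 0.0275, 0.0340 and 0.0387. Without siC replicate 3, 7 of the 39 (17.9%) were lower past the threshold and 0 higher, beside 6.67% and 3.59% of all genes, and 25 were lower at an unadjusted p under 0.05 (64.1%, background 23.1%). The difference between this list and the members was not tested.

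Set beside the promoters, the 32 members with a CHR hexamer had a median log2 change of -0.059, and an unadjusted p under 0.05 was found for 6 lower (18.8%) and 1 higher of them (3.12%), beside 14.8% and 11% of all genes. The 10 members with a promoter window and no hexamer had a median of 0.0018, with 0 and 1 such members. Without siC replicate 3 the medians were -0.093 and -0.058, so the sign of the latter rests on that library. The difference between these sets was not tested. With all libraries both sets spanned 0, from -0.42 to 0.33 and from -0.17 to 0.17.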

How the data were processed

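Total RNA of Huh-7 cells was depleted of ribosomal RNA and sequenced from strand-aware libraries on an Illumina NextSeq. According to the methods and the submitters' processing notes, the authors clipped reads with cutadapt (1.14), aligned them to GRCh38 (hg38) with HISAT2 (2.1.0), handled alignments with SAMtools (1.5), counted reads per gene with featureCounts (1.5.3) over Ensembl 89 and used edgeR (3.18.1) with TMM normalization. The deposited table holds 1 FPKM value per gene and library. Its columns with the authors' own test (log2 fold change, p-value, FDR) were not used, and 0 columns of per-sample values were unmatched to a label.

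FPKM are not counts, so limma (3.58.1, R 4.3.3) with a mean-variance trend was run on log2(FPKM + 0.1), two-sided, over the 14839 genes averaging 1 FPKM or more, with Benjamini-Hochberg adjustment over all of them and a threshold of 0.01, the FDR used in the study. Fold changes on this scale are understated for low genes. FPKM times gene length gave whole reads for 100% of the values (within 0.05 read), which gave the depth, 12826550 to 33212205 reads, and the reads for voom. The precision of a value is limited by the 3 and 4 libraries and, for members with few reads, by counting error.

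The groups and replicate numbers were taken from the titles. The members, lists, tests and alternatives were chosen with earlier results of these data known. By rule, values per library are given for members past the threshold, the 12 smallest p-values, the 5 highest and 5 lowest siC means and MKI67, TOP2A, CDK1, CCNB1, CCNA2, FOXM1, MYBL2, PLK1, AURKA, AURKB and BIRC5. Other members are given by range or log2 change, and from other lists the genes past the threshold or else the 3 smallest p-values are named. Positions and GC content were taken from GENCODE 44 (GRCh38) by Ensembl identifier, and GC content was missing for 128 genes. Alternatives were a pseudocount of 1, no filter, a minimum mean of 5 FPKM, quantile normalization, median centring, no variance trend, voom, removal of a GC trend, array weights (gene-by-gene method, since the default did not converge), a replicate block, a threshold of 0.05 and leaving out each library, and leaving out 2 libraries was added after seeing the data. The fit was tested on simulated data with the same dispersion (0.02) in all libraries. No simulated library stood apart as siC replicate 3 does, so this does not cover calls that rest on that library.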

Additional observations from a re-analysis of the deposited data

Results flagged for a closer look

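Among the 4 siIGF2BP1 libraries, the gap between the most distant library and the nearest of the others was divided by the group's range. It exceeded Dixon's 95% critical value for 5 of the 50 members, where chance gives about 2.5 if genes are independent. All 50 share the same 4 libraries, so the count is not read as an excess over chance. The gap made up 0.946 of the range for ASPM, 0.924 for MKI67 and 0.928 for SMC4, each with replicate 2 as the highest library. It made up 0.854 for AURKA, with replicate 2 as the lowest, and 0.857 for TTK, with replicate 4 as the lowest. For TTK the counting error was above the replicate SD (2.55% against 2.08%). The siC group of 3 libraries was not examined in this way.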

How the results depend on the processing

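The direction of 30 members was the same in all 18 alternatives, and 20 were reversed in at least 1. Leaving out 1 library at a time gave 0 to 8 members lower and 0 to 0 higher past the threshold, 5 to 18 lower and 2 to 4 higher with an unadjusted p under 0.05, 8 to 23 lower and 3 to 6 higher with groups not overlapping, a median of -0.0745 to -0.0382, 53 to 990 genes lower and 66 to 533 higher over all genes, and an IGF2BP1 log2 change of -2.40 to -2.35. In each of these the highest count of lower members came from leaving out siC replicate 3. There the 18 and 23 lower members (36.0% and 46.0%) stood beside 23.1% and 29.3% of all genes. Such shares were not taken with a siIGF2BP1 library left out, so these ranges are not read as a result about the members. The group has 3 or 4 libraries, so 1 library can decide a call, and the cause of each change was not tested. Over all genes, leaving out any library other than siC replicate 3 gave at most 109 lower and 86 higher, against 338 and 245.

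Log2 changes that crossed 0 when 1 library was left out ranged from -0.0126 to 0.137 for AURKB, -0.0433 to 0.0899 for BIRC5, -0.000938 to 0.0323 for BUB1, -0.199 to 0.012 for BUB1B, -0.244 to 0.014 for CDC25B, -0.0567 to 0.135 for CENPF, -0.0245 to 0.25 for DLGAP5, -0.134 to 0.00928 for HMMR, -0.314 to 0.16 for INCENP, -0.213 to 0.228 for KIF18A, -0.0269 to 0.0689 for KIF20A, -0.111 to 0.249 for KIF23, -0.198 to 0.123 for MKI67, -0.0139 to 0.106 for MYBL2, -0.068 to 0.227 for PTTG1, -0.0661 to 0.132 for SMC4 and -0.137 to 0.0865 for UBE2C. With siC replicate 3 and siIGF2BP1 replicate 2 left out together, 9 members were lower past the threshold, beside 1043 lower and 562 higher of all genes. An unadjusted p under 0.05 was found for 20 lower and 5 higher members (background 24.2% and 16.1%). Groups did not overlap for 27 lower and 7 higher members (background 33.1% and 23.5%). UBE2C (0.0309), PTTG1 (-0.0556), AURKB (-0.0127), BIRC5 (-0.012), CENPF (-0.0729), KIF18A (0.126), KIF20A (-0.0369) and SMC2 (-0.000664) were reversed. Array weights, which gave siC replicate 3 a weight of 0.0986, called 11 members lower and 2 higher, beside 1722 and 1022 of all genes. At an unadjusted p under 0.05, 21 members were lower (background 26.1%). These weights reversed UBE2C (0.0418), PTTG1 (-0.0533), AURKB (-0.0395), BIRC5 (-0.0324), CENPF (-0.0672), KIF18A (0.149), KIF20A (-0.0249) and MKI67 (0.0365).

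Quantile normalization gave 3 lower and 7 higher members with an unadjusted p under 0.05 (background 12.9% and 12.7%), 4 lower and 10 higher with groups not overlapping (background 13.7% and 13.4%) and a median of -0.00272, and reversed CCNB1 (0.0386), INCENP (0.0577), KIF18A (0.0106), HMMR (0.0185) and TOP2A (0.0705). Median centring reversed INCENP (0.0231) and gave 6 higher members with groups not overlapping. The share over all genes was not taken for that setting, so this count is not read as a result about the members. Removal of the GC trend gave 622 lower and 405 higher genes over all genes and reversed BUB1 (-0.000401) and INCENP (0.000112). No filter gave 206 and 146 genes, and a threshold of 0.05, looser by construction, 1010 and 703 genes with 2 members lower and 1 higher. The labels do not say whether libraries of the same number are paired. Deviations of same-numbered libraries from their group means had correlations of -0.0263, -0.118 and -0.111. These cannot decide it, because siC replicate 3 enters the siC mean and so the deviations of all siC libraries. With a replicate block, which leaves fewer degrees of freedom, 0 and 0 genes passed over all genes. No siC library has the number 4, so siIGF2BP1 replicate 4 had a block of its own and did not enter the difference. MKI67 was reversed (0.00147), and IGF2BP1 (-2.36) no longer passed (limma adjusted p = 0.0909). An unadjusted p under 0.05 was found for 2 lower members and 1 higher. The share over all genes was not taken at that cut, so these counts are not read as a result about the members.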
